A study of Rattus norvegicus with 16 samples.

Results

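The Bcl2 family of apoptosis regulators was examined in INS1 β cells, a rat insulinoma line, after lentiviral overexpression of GFP or Pax5. The 10 members Bcl2, Bcl2l1, Mcl1, Bax, Bak1, Bad, Bid, Bbc3, Bcl2l11 and Bnip3 were chosen by gene symbol, and each had 1 transcript cluster among the 23188 on the array, of which 15049 carry a gene symbol here. Per the labels there were 8 numbered experiments, and each gave a GFP and a Pax5 array. Both groups were clonal 832/13 cells grown at 11.1 mM glucose, given virus at an MOI of 1.25 for 24 h and collected at 72 h. The transgene was driven by the human phosphoglycerate kinase 1 promoter per the study's text, and 0 arrays of untransduced cells were analysed here, so Pax5 is set against GFP throughout. The study asked how Pax5, a transcription factor best known from B lymphocyte development, alters the transcriptome of β cells. In Pax5-overexpressing INS1 β cells it also reported higher apoptotic caspase activity, less proliferation and a loss of cells. How the RNA levels given below relate to that cell loss was not tested.

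Proteins of the Bcl2 family decide whether the outer mitochondrial membrane stays intact. Protective members (Bcl2, Bcl-xL encoded by Bcl2l1, and Mcl1) bind and restrain the pore-forming effectors Bax and Bak1, and the BH3-only proteins, which are produced or activated under stress, either occupy the protective members or activate the effectors directly. Once pores form, cytochrome c leaves the mitochondria and caspases are activated. In β cells these proteins are known for their part in cell loss under cytokines, high lipid levels and endoplasmic reticulum stress. Several members are governed after translation (Bid by cleavage, Bad by phosphorylation, Mcl1 by rapid degradation), which arrays of RNA do not measure.

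Signals are log2 values normalized by the authors, with array medians between 6.98 and 7.01, and the least alike of all array pairs had a correlation of 0.989 across clusters. Pax5 RNA, the check of the labels, lay between 7.23 and 8.39 on GFP arrays and between 17.02 and 17.56 on Pax5 arrays. The β cell markers Ins1, Ins2, Iapp, Pdx1, Nkx6-1 and Slc30a8 were all above the dimmest 30% of clusters. The log2 of their summed unlogged signals was 19.46 to 19.58 on GFP and 19.57 to 19.71 on Pax5 arrays. This sum is set mostly by the brightest genes, Ins1, Iapp and Ins2. Of the 6 β cell markers, Iapp was higher (0.46) and Slc30a8 lower (-0.40) with Pax5, each in 8 of 8 experiments, and 4 did not pass the test used below. Gcg, the glucagon gene and a marker of α cells, was bright as well, between 17.20 and 17.52 on GFP and between 17.89 and 18.21 on Pax5 arrays, whereas the delta cell hormone Sst had means of 4.84 and 4.85. For 10 exocrine, stromal, endothelial and immune markers the log2 of the summed signals lay between 8.74 and 8.81 on GFP arrays and between 8.72 and 8.86 on Pax5 arrays. Only 5 of these 10 were among the dimmest 30% of clusters, and 0 of the 10 passed the test. The part of Gcg in the results below was not tested. The arrays read RNA of whole cultures, so less RNA in each cell and fewer cells that express a gene cannot be told apart, nor can splice forms of a gene such as those of Bcl2l1.

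With Pax5, 2 of the 3 protective members rose and 0 fell at an adjusted p under 0.05 (limma with the experiment as a block, Benjamini-Hochberg over all clusters). Of the 7 members counted as death-promoting, 4 fell and 0 rose. Those that fell were 1 of 2 pore-forming effectors, 2 of 4 BH3-only members and Bnip3, a divergent relative. Bcl2l1 rose 1.43-fold. Bnip3 dropped to 61.1% of its GFP level, Bid to 64.6% and Bbc3 to 72.8%. Bcl2 rose 1.26-fold and Bax dropped to 81.9%, both close to the threshold. Mcl1, Bak1, Bad and Bcl2l11 did not pass. The members' count of 6 of 10 stands beside 30.7% of all clusters that passed the same test (14.6% higher, 16.1% lower). The median log2 fold change was 0.34 over the 3 protective and -0.29 over the 7 death-promoting members, against 0.00125 over all clusters. By role, the median was -0.09 over the 2 pore-forming effectors and -0.25 over the 4 BH3-only members, with Bnip3 at -0.71. No test was made over the list, since its members were chosen with earlier results of these data known. None of the members changed 2-fold, a size that 2.14% of clusters reached with an adjusted p under 0.05.

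**Figure D1:**
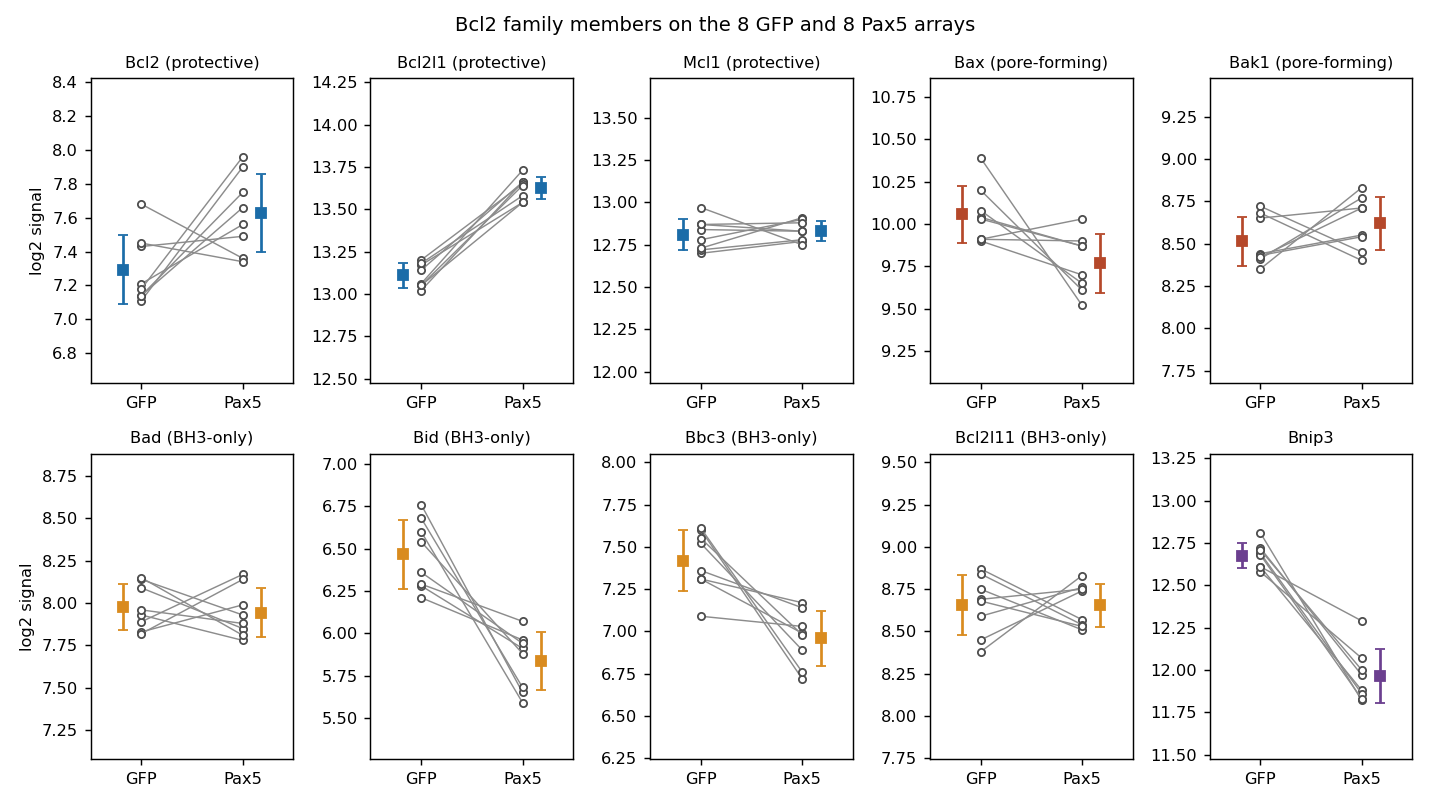
Log2 signal of the 10 members on each array, with lines joining the GFP and Pax5 array of an experiment and squares with bars giving the mean ± SD of 8 arrays (each panel spans the same height of the log2 scale). Bcl2l1 was higher and Bid, Bbc3 and Bnip3 were lower in 8 of 8 experiments, and the lines of Mcl1, Bak1, Bad and Bcl2l11 run both ways.

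Among the protective members, Bcl2l1 changed most evenly. It encodes Bcl-xL, which holds Bax and Bak1 in check at the mitochondrion. Its log2 signal had a lowest value of 13.02, a median of 13.10 and a highest value of 13.20 on GFP arrays, and of 13.54, 13.645 and 13.73 on Pax5 arrays. The groups did not overlap, as was the case for 3 of the 10 members and for 16.7% of all clusters. The mean rose from 13.11 ± 0.0710 to 13.63 ± 0.0663 (SD, n = 8 each), a log2 fold change of 0.52 (SE 0.0647, 95% interval 0.38 to 0.65, adjusted p = 1.64e-05 from limma). The rise was between 0.37 (experiment 2) and 0.67 (experiment 4), larger in every experiment than the whole range of either group. Flipping the signs of the 8 differences in all ways (exact permutation test, 2-sided) gave p = 0.00781, the smallest that 8 pairs allow. Of all clusters, 8.67% had a change at least as large in either direction.

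Bcl2, the founding member of the family, varied more between arrays. Its log2 signal ran from 7.11 over a median of 7.195 to 7.68 on GFP arrays and from 7.34 over 7.61 to 7.96 on Pax5 arrays, so the groups overlapped. It was higher with Pax5 in 6 of 8 experiments, by up to 0.79 in experiment 2, and lower in experiments 5 (-0.32) and 6 (-0.11). The log2 fold change was 0.34 (SE 0.116, 95% interval 0.09 to 0.58, adjusted p = 0.0378 from limma). The call is weak. By sign flips the exact permutation p was 0.0703, and the adjusted p from limma rose to 0.0999 without experiment 2, 0.0911 without experiment 3, 0.0635 without experiment 4, 0.103 without experiment 7 and 0.0785 without experiment 8.

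Mcl1, a short-lived protective protein that binds Bak1 and Bcl2l11, was among the brightest members and did not pass the test. Its log2 signal ran from 12.70 over 12.81 to 12.97 on GFP arrays and from 12.75 over 12.83 to 12.91 on Pax5 arrays. The log2 fold change was 0.02 with a 95% interval of -0.12 to 0.16 (adjusted p = 0.845 from limma), and 5 experiments were higher and 3 lower. A rise of the size of that of Bcl2l1 lies outside this interval. The difference between the changes of Bcl2l1 and Mcl1 was 0.50 on the log2 scale (95% interval 0.37 to 0.62), with Bcl2l1 above Mcl1 in 8 of 8 experiments (exact sign-flip permutation test, p = 0.00781, adjusted p = 0.026 over 10 pairs of members with the same role). The changes of Bcl2 and Bcl2l1 differed by -0.18, with a 95% interval of -0.58 to 0.22, and Bcl2 was above Bcl2l1 in 4 of 8 experiments (exact permutation test, adjusted p = 0.356 over 10 pairs). Bcl2 was 0.31 above Mcl1, with an interval of -0.05 to 0.68 (exact permutation test, adjusted p = 0.134 over 10 pairs).

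**Figure D2:**
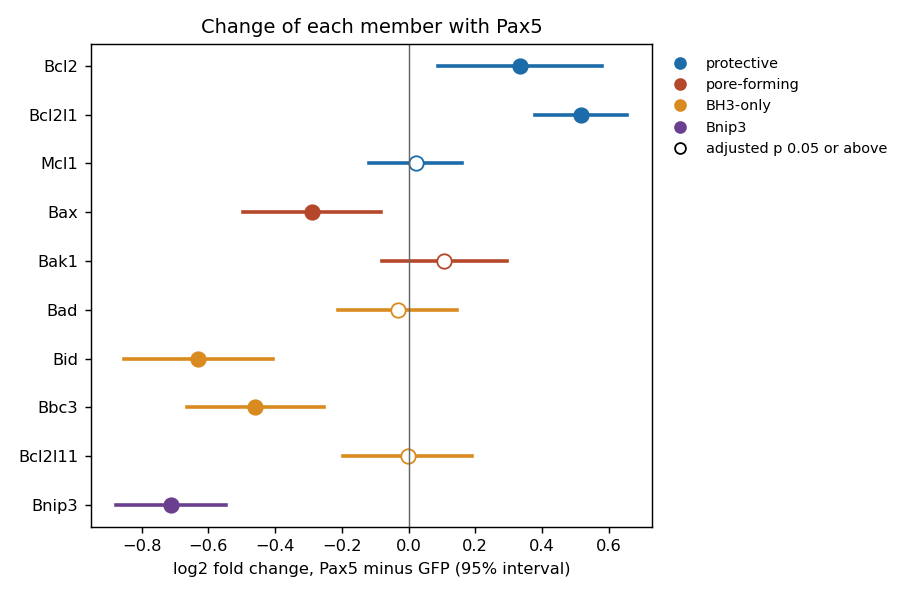
Log2 fold change of each member, Pax5 minus GFP, with the 95% interval of the limma fit over 8 experiments, coloured by role; filled points have an adjusted p under 0.05. The intervals of Bnip3 (-0.88 to -0.55) and Bid (-0.85 to -0.41) lie farthest from 0, and among the protective members that of Bcl2l1 (0.38 to 0.65).

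Bax and Bak1 form the pores. Bax, held in the cytosol until it is activated, had a log2 signal from 9.90 over 10.035 to 10.39 on GFP arrays and from 9.52 over 9.785 to 10.03 on Pax5 arrays. The groups overlapped, and Bax was lower with Pax5 in 7 of 8 experiments. The log2 fold change was -0.29 (SE 0.0971, 95% interval -0.50 to -0.08, adjusted p = 0.0333 from limma), and the exact permutation p by sign flips was 0.0234. Experiment 1 gave the largest difference (-0.87), and in experiments 3 (-0.01) and 8 (0.12) the arrays were close. Without experiment 1 the log2 fold change was -0.21 (adjusted p = 0.0923 from limma), and the call was also lost without experiment 4 (0.0905) or 6 (0.075).

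Bak1, which resides in the outer membrane, had a log2 signal from 8.35 over 8.435 to 8.72 on GFP arrays and from 8.40 over 8.63 to 8.83 on Pax5 arrays. Its log2 fold change of 0.11 did not pass (95% interval -0.08 to 0.30, adjusted p = 0.398 from limma), and 6 experiments were higher and 2 lower. The change of Bax lay below that of Bak1 by 0.40 on average (95% interval of the difference -0.78 to -0.01), in 7 of 8 experiments (exact sign-flip permutation test, p = 0.0156, adjusted p = 0.0312 over 10 pairs). Of the 5 pairs that passed, 0 passed when any experiment other than experiment 5 was left out. With 7 experiments the smallest p the test allows is 0.0156, which passes the adjustment over 10 pairs only if several pairs have a p near it. This loss of calls therefore cannot show whether they depend on single experiments. The mean differences of these 5 pairs kept their sign with any 1 experiment left out, ranging from -0.47 to -0.26 for Bax and Bak1.

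The BH3-only members fell into a pair that was lower with Pax5, Bid and Bbc3, and a pair that did not pass the test, Bad and Bcl2l11. Bid links death receptors to mitochondria once caspase 8 cleaves it. It was the dimmest member, with a log2 signal from 6.21 over 6.45 to 6.76 on GFP arrays and from 5.59 over 5.895 to 6.07 on Pax5 arrays. The groups did not overlap. The log2 fold change was -0.63 (SE 0.105, 95% interval -0.85 to -0.41, adjusted p = 0.000252 from limma), with a fall in 8 of 8 experiments (exact sign-flip permutation test, p = 0.00781). The experiments were spread, from -0.22 in experiment 5 and -0.25 in experiment 1 to -1.01 in experiment 3 and -1.11 in experiment 4. Casp8, whose product cleaves Bid, was dim and did not pass (log2 fold change 0.02, limma adjusted p = 0.918).

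Bbc3 encodes Puma, a BH3-only protein induced by p53 and other stress signals that binds all protective members. Its log2 signal ran from 7.09 over 7.44 to 7.61 on GFP arrays and from 6.72 over 6.985 to 7.17 on Pax5 arrays. The groups overlapped through experiment 2, whose GFP array (7.09) lay below the Pax5 arrays of experiments 7 (7.17) and 8 (7.14). Bbc3 was lower with Pax5 in 8 of 8 experiments, by as little as -0.06 (experiment 2) and as much as -0.88 (experiment 3). The log2 fold change was -0.46 (SE 0.0961, 95% interval -0.66 to -0.25, adjusted p = 0.00167 from limma), and the exact permutation p was 0.00781. The same sign in 8 of 8 experiments was seen for 4 of the 10 members (Bcl2l1, Bid, Bbc3 and Bnip3) and for 20.4% of all clusters.

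Bad, which binds Bcl2 and Bcl-xL unless it is phosphorylated, had a log2 signal from 7.82 over 7.945 to 8.15 on GFP arrays and from 7.78 over 7.905 to 8.17 on Pax5 arrays. Its log2 fold change was -0.03 with a 95% interval of -0.21 to 0.15 (adjusted p = 0.813 from limma). Bcl2l11 encodes Bim, a direct activator of Bax and Bak1 whose gene is driven by FoxO factors and, under endoplasmic reticulum stress, by CHOP. Its log2 signal ran from 8.38 over 8.685 to 8.87 on GFP arrays and from 8.51 over 8.655 to 8.83 on Pax5 arrays, with a log2 fold change of -0.00250 (95% interval -0.19 to 0.19, adjusted p = 0.987 from limma). For both genes the arrays overlapped almost fully, and Bcl2l11 was higher in 4 experiments and lower in 4. In 3 of the pairs within the BH3-only group the changes differed. These calls were likewise lost when any experiment other than experiment 5 was left out, where the test has little room to pass any pair. Bid fell by 0.60 more than Bad (95% interval of the difference 0.34 to 0.85, 8 of 8 experiments, exact permutation test, adjusted p = 0.026 over 10 pairs). Bid also lay below Bcl2l11 in 7 of 8 experiments (difference -0.63, exact permutation test, adjusted p = 0.0312 over 10 pairs), and Bbc3 lay below Bcl2l11 in 8 of 8 (difference -0.46, exact permutation test, adjusted p = 0.026 over 10 pairs). The pairs Bad and Bbc3 (difference 0.43, interval 0.07 to 0.78), Bad and Bcl2l11 (-0.03, interval -0.34 to 0.28) and Bid and Bbc3 (-0.17, interval -0.49 to 0.15) did not pass (exact permutation test, adjusted p = 0.0652, 0.82 and 0.302 over 10 pairs). These are differences of changes on the array's log2 scale, where dim probes can understate a change.

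**Figure D3:**
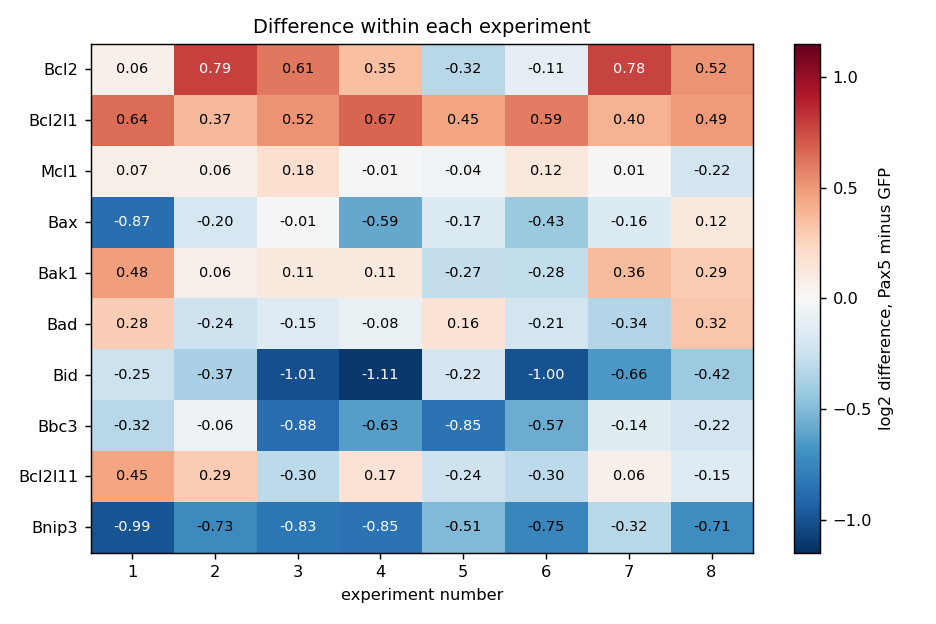
Log2 difference between the Pax5 and the GFP array of each experiment (columns) for each member (rows), from blue (lower with Pax5) to red (higher). The rows of Bcl2l1, Bid, Bbc3 and Bnip3 hold 1 colour in 8 of 8 experiments, with the largest single differences in Bid (-1.11, experiment 4) and Bnip3 (-0.99, experiment 1).

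Bnip3 fell most of the 10 members. It is a divergent relative with a BH3 motif that acts mainly as a mitophagy receptor of the outer mitochondrial membrane, and its gene is a textbook target of the hypoxia-inducible factor. Its log2 signal ran from 12.58 over 12.685 to 12.81 on GFP arrays and from 11.82 over 11.925 to 12.29 on Pax5 arrays. The groups did not overlap, and the GFP values were packed within a span of less than the gap to the highest Pax5 array, that of experiment 7. The mean fell from 12.68 ± 0.0748 to 11.97 ± 0.158 (SD, n = 8 each), a log2 fold change of -0.71 (SE 0.0774, 95% interval -0.88 to -0.55, adjusted p = 3.79e-06 from limma). Each experiment showed the fall, from -0.32 in experiment 7 to -0.99 in experiment 1 (exact sign-flip permutation test, p = 0.00781). Of all clusters, 4.68% changed at least as much in either direction.

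Promoter sequences of RefSeq (GRCr8, 250 bases before to 50 after a start of transcription) were matched for 8 of the 10 members. Bax and Bbc3, which both fell, had no entry among them. The start is that of the promoter set, which in Bcl2 and Bnip3 stands at the edge of the RefSeq gene and in Bcl2l1 inside it. Those of Bcl2, Bcl2l1 and Bnip3 are shown because both protective genes that rose, and the gene that fell most, hold matches to short motifs of factors named above. Capitals mark the matches.
Bcl2, chr13:23366851-23367150, minus strand: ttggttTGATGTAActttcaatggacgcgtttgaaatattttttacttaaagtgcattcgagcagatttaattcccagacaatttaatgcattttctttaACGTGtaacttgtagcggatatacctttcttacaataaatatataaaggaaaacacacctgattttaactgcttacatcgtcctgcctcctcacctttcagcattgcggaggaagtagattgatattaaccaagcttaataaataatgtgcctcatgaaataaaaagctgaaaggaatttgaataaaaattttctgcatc
Bcl2l1, chr3:161764726-161765025, minus strand: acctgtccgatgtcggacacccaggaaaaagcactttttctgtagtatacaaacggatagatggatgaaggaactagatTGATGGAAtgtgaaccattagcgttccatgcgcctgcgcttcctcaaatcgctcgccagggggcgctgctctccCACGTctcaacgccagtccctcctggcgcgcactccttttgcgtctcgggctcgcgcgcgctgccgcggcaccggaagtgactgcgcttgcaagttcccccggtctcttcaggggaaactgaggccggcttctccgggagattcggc
Bnip3, chr1:203154913-203155212, minus strand: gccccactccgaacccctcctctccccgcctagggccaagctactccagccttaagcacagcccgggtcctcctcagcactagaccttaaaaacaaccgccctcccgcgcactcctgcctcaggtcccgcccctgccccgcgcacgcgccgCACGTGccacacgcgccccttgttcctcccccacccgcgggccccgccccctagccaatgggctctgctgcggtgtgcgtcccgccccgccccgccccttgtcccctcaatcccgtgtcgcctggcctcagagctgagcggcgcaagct
The core of the hypoxia response element, ACGTG on either strand, was found in 3 of 8 promoters, against 19.7% of 27457 promoters of the same length. These 3 are the promoters shown, which were picked for their matches. Bid, which fell, was among the other 5. Whether matches go with the changes of the members was not tested. In Bnip3 the core stands as the palindrome CACGTG, beginning 99 bases before the start, where the matches of both strands overlap. In Bcl2 it begins 150 bases and in Bcl2l1 97 bases before the start. The element of ATF4 and C/EBP factors, TGATGNAA on either strand, was found in Bcl2 (TGATGTAA, 244 bases before the start) and Bcl2l1 (TGATGGAA, 171 bases before), which is 2 of 8 members against 3.82% of all promoters. The core letters of the PAX5 motif, GCGTGAC on either strand, were found in 0 of the 8, against 2.09% of all promoters. The matches describe these letters in these windows, and no binding was measured.

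Bnip3 stood among hypoxia-inducible genes that were lower with Pax5. Of 20 other measured genes of this kind, 14 were lower and 2 higher at the same threshold, with a median log2 fold change of -0.55. Of all clusters, 16.1% were lower and 14.6% higher. Among the hypoxia-inducible genes that fell were P4ha1 (-1.50), a collagen prolyl hydroxylase subunit, the glucose transporter gene Slc2a1 (-0.94), the pyruvate dehydrogenase kinase gene Pdk1 (-0.91) and Ddit4 (-1.31), an inhibitor of mTORC1 signalling that ATF4 also induces (adjusted p from limma between 4.22e-09 and 5.85e-07). The genes that rose were Higd1a (0.46) and Pfkfb3 (0.58). Hif1a itself did not pass (log2 fold change -0.04, limma adjusted p = 0.721), and Epas1, which encodes the related factor HIF-2α, fell by 0.86. Bnip3l, the close relative of Bnip3 with a similar function in mitophagy, had overlapping groups (13.16 over 13.335 to 13.47 on GFP and 13.05 over 13.185 to 13.32 on Pax5 arrays) and did not pass the test (-0.17, lower in 7 of 8 experiments, adjusted p = 0.0643 from limma). Of 8 measured mitophagy receptors and adaptors, Bnip3l among them, 2 were lower and 0 higher, against the same shares of all clusters. The lower ones were the autophagy adaptors Optn (-0.46) and Sqstm1 (-0.30). The genes whose signal over the 16 arrays was most like that of Bnip3 were B4galt6 (r = 0.98), Ak4 (r = 0.98), an adenylate kinase of mitochondria, and Cdv3 (r = 0.98), and over the 8 differences their r with Bnip3 was 0.92, 0.83 and 0.83. For Bcl2l1 they were Cdh1 (r = 0.99), which encodes E-cadherin, Lynx1 (r = 0.99) and Aacs (r = 0.99), with an r of 0.89, 0.92 and 0.85 over the 8 differences. These values were picked as the highest among named genes and rest in large part on the difference between groups, so they describe likeness only.

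The rest of the family was described from a list of relatives. Of 3 further protective genes, 0 passed the test: Bcl2l2, which encodes Bcl-w, had a log2 fold change of -0.16, Bcl2a1 of -0.04 and Bcl2l10 of 0.13 (adjusted p from limma of 0.221, 0.751 and 0.182). Bcl2a1 was among the dimmest 30% of clusters and Bcl2l10 just above them, so a change of either may not be detectable. Of 9 death-promoting or divergent relatives, 2 were higher and 1 was lower, against 14.6% higher and 16.1% lower of all clusters. Hrk, a BH3-only gene known from neurons, ran from 7.13 over 7.50 to 7.93 on GFP arrays and from 6.41 over 6.875 to 7.06 on Pax5 arrays, without overlap, and fell by 0.65 (SE 0.12, adjusted p = 0.000566 from limma) in 8 of 8 experiments. Bcl2l14 ran from 7.22 over 7.525 to 7.70 and from 7.76 over 7.855 to 8.06, also without overlap, and rose by 0.37 (adjusted p = 0.00366 from limma) in 8 of 8 experiments. Bmf, a BH3-only gene linked to cell detachment, rose by 0.25 (adjusted p = 0.0162 from limma) in 8 of 8 experiments, at a signal among the dimmest 30% of clusters. Pmaip1, which encodes Noxa, a partner of Mcl1, was dimmer still (mean log2 signal 4.08 with GFP, log2 fold change -0.07), and with it Bik (-0.02) and Bcl2l12 (0.04) were in the dimmest 30%, where a change may not be detectable. Bok (-0.03) and Bcl2l15 (0.02) did not pass.

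**Figure D4:**
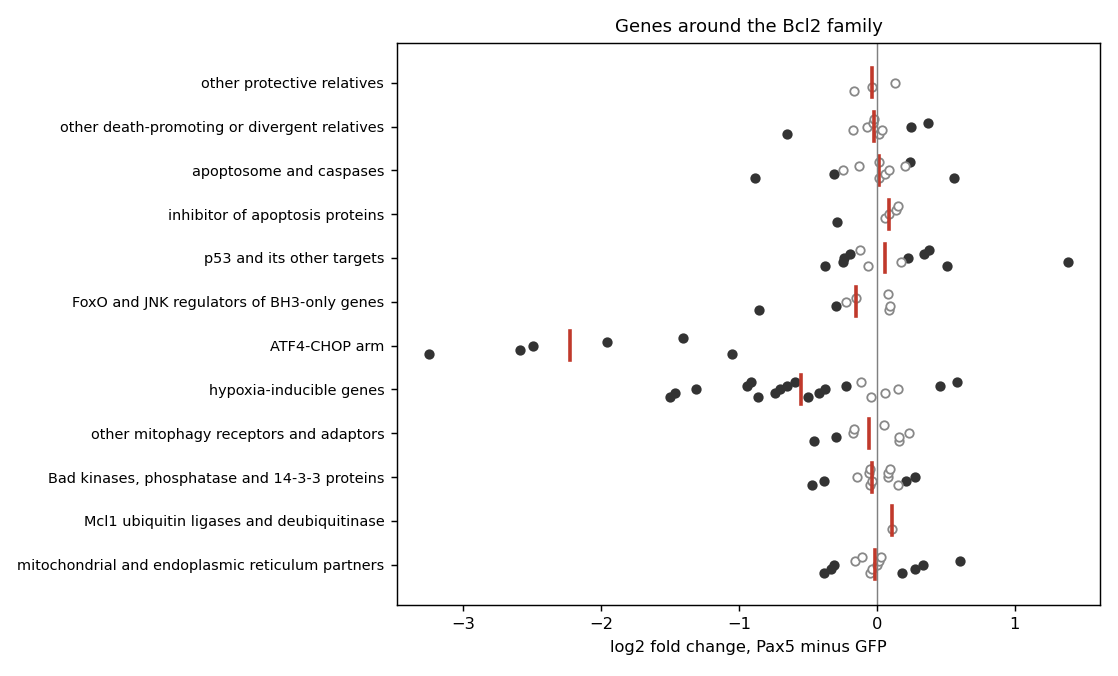
Log2 fold change, Pax5 minus GFP, of genes around the Bcl2 family in 12 lists (rows), each point 1 gene, filled at an adjusted p under 0.05 from limma, with a red line at the list's median. Hypoxia-inducible genes (median -0.55) and the ATF4-CHOP arm (median -2.23) lie to the left of the other rows.

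Downstream of the pores, 2 of 11 measured apoptosome and caspase genes were higher and 2 lower, shares near the 14.6% higher and 16.1% lower of all clusters: the executioner caspase gene Casp6 (0.56) and the intermembrane space flavoprotein gene Aifm1 (0.24) rose, and Casp12 (-0.88), a caspase of the endoplasmic reticulum in rodents, and the mitochondrial protease gene Htra2 (-0.31) fell. Cycs, the gene of cytochrome c, did not pass (log2 fold change -0.25, limma adjusted p = 0.077), nor did Apaf1, the scaffold of the apoptosome (0.09, adjusted p = 0.584), and Casp9, its initiator caspase (0.21, adjusted p = 0.06). Of 5 inhibitor of apoptosis genes, 1 was lower and 0 higher, beside those shares of all clusters. Birc2 fell (-0.29, adjusted p = 0.0201 from limma), and Xiap had a log2 fold change of 0.09. Among 14 mitochondrial and endoplasmic reticulum partners of the family, 4 were higher and 3 lower, against the same shares of all clusters. The inositol trisphosphate receptor gene Itpr3, whose product Bcl2 proteins bind, rose by 0.60, and Vdac1, the main outer membrane channel, fell by 0.39. Its relatives differed: Vdac3 rose by 0.18, and Vdac2 did not pass (log2 fold change 0.0025, limma adjusted p = 0.982). The fission genes split, with Fis1 higher (0.34) and Dnm1l lower (-0.33).

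Upstream regulators of the members were read from lists as well. Their counts stand beside the 14.6% higher and 16.1% lower of all clusters. Bbc3 and Bax are targets of p53. Of 12 other measured genes of that pathway, 5 were higher and 4 lower, with a median log2 fold change of 0.06. Tp53inp1 rose by 1.39, Ccng1 by 0.51, Ei24 by 0.35 and Phlda3 by 0.38, and Aen fell by 0.37 (adjusted p from limma between 2.53e-06 and 0.01). Cdkn1a, the best known p53 target, did not pass (log2 fold change -0.12, limma adjusted p = 0.605). The ATF4-CHOP arm is known to raise Bcl2l11 and Bbc3 and to lower Bcl2 in other cells under stress. All 6 listed genes of this arm were lower with Pax5 in 8 of 8 experiments, with a median of -2.23. Bcl2l11 did not pass (log2 fold change -0.0025), and a part of the arm in the changes of Bbc3 and Bcl2 was not tested. Ddit3, which encodes CHOP, had a log2 fold change of -2.58 (SE 0.157) and Atf4 of -1.05 (SE 0.145). Of 7 FoxO and JNK genes, Jun (-0.86) and Foxo1 (-0.29) were lower and 0 were higher, and Foxo3 had a log2 fold change of 0.08. Of 13 genes that act on Bad, 2 were lower and 2 higher, near the shares of all clusters. The kinase genes Pim1 (-0.38) and Pim2 (-0.47) were lower. Ywhah (0.21) and Ywhaz (0.28), whose proteins hold phosphorylated Bad in the cytosol, were higher. Akt1 did not pass (0.15, adjusted p = 0.0727 from limma). Usp9x, the deubiquitinase of Mcl1, did not pass (log2 fold change 0.11, limma adjusted p = 0.363).

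The members varied between experiments in a way that joined the groups. Over the 8 experiments, the GFP and the Pax5 values of a member ran in opposite directions, with a correlation between -0.87 (Bid) and -0.18 (Mcl1). The same was seen across all clusters, where the GFP and the Pax5 array of an experiment deviated from their group means with a correlation between -0.749 and -0.704. Experiments in which Bid was high with GFP (3, 4 and 6) were thus those in which it was low with Pax5 and in which its fall was largest. The part of this pattern in the results was not tested, and the fit with the experiment as a block uses differences within an experiment alone. The labels do not tell whether cells of different passages were used, and p therefore reflects the scatter of these 8 experiments, which may be technical.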

How the data were processed

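RNA of 8 GFP and 8 Pax5 cultures was read on whole-transcript arrays. The deposited values are log2 signals per transcript cluster, which the authors made by RMA in Transcriptome Analysis Console (versions not given in the sources used here), a step that corrects background, normalizes between arrays and sums probes. They were used as deposited with no filter. With arrays, precision depends on how many there were and on the scatter of each cluster. Clusters were named through the platform annotation and RefSeq (GRCr8): 15049 of 23188 carry a symbol. The effect of Pax5 was fitted with limma 3.58.1 in R 4.3.3, the experiment entering as a fixed block, and moderated by eBayes, and p was adjusted by Benjamini-Hochberg over all clusters. The experiment number in the labels pairs the arrays. Single values were tested by exact sign flips of the 8 differences (256 arrangements), and intervals for the difference of 2 members' changes come from the SD of the 8 paired values. Members and lists were chosen with earlier results of these data known. Named genes were the members, their listed relatives and up to 5 genes of lowest p in each list. A few regulators, effectors and partners were added after their values were seen. The script was tested on simulated data. Alternatives were a filter on the dimmest 30% of clusters, no block, median centring, quantile normalization, trended and robust eBayes, array weights, the methods' paired t-test, leaving out each experiment and a threshold of 0.01.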

Additional observations from a re-analysis of the deposited data

How the results depend on the processing

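Bcl2l1, Bid, Bbc3 and Bnip3 kept their direction and passed the threshold under every alternative run, with adjusted p ranging from 3.99e-09 to 0.000253, 2.61e-06 to 0.0124, 5.16e-05 to 0.0241 and 3.85e-09 to 0.000862. Bcl2 (0.00657 to 0.146) and Bax (0.00433 to 0.111) did not. Both were lost under the methods' paired t-test (adjusted p = 0.146 and 0.111, with 4 members and 6073 clusters changed) and at an adjusted p under 0.01 (4 members and 4760 clusters). Leaving out 1 experiment gave 4 to 6 changed members and 6210 to 6798 changed clusters. Without the replicate block 10584 clusters and the same count of 6 members passed, and the block changed no member's call. Quantile normalization gave 7085 clusters, median centring 7096, trended and robust eBayes 7177, array weights 7259 and leaving out the dimmest 30% 6711 of 16231, each with 6 members changed. The other 4 members never passed, and 3 of them changed sign near 0. With 1 experiment left out, the log2 fold change of Mcl1 ranged from -0.00143 (without experiment 3) to 0.0557, that of Bad from -0.0829 to 0.0114 (without experiment 7) and that of Bcl2l11 from -0.0671 to 0.04, being 0.04, 0.0314, 0.04 and 0.0186 without experiment 3, 5, 6 and 8. Bcl2l11 was also 0.00445 under quantile normalization and 0.00250 under median centring. The count of 5 pairs of members with unequal changes within a role was 5 under quantile normalization. It ranged from 0 to 5 when 1 experiment was left out (0 in each case except without experiment 5). As 7 experiments allow no sign-flip p below 0.0156 before adjustment, this drop cannot show whether the calls depend on single experiments. Each member has 1 cluster, so averaging clusters of a gene gave no further value. Dim signals, such as those of Pmaip1 and Bmf, limit what could be detected.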
